A study of Homo sapiens with 6 samples.

Results

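The EGF family ligands of HaCaT keratinocytes are described here: the 5 genes HBEGF, EREG, AREG, TGFA and NRG1. They were measured by 6 of the 22119 probe sets with deposited values, and shares of all probe sets below are of these 22119. They were chosen by gene symbol from the authors' table of 497 probe sets that differed between the groups, 303 of them higher with M1 protein, so the difference between the groups is part of how they were picked and is given as a description, without a test. HaCaT is an immortalised line of human skin keratinocytes. The cells grew in serum-free medium without calcium and were either left untreated (control, 3 samples) or given M1 protein, which coats the bacterium Streptococcus pyogenes, at 5 µg/ml for 6 h (M1, 3 samples). These 6 samples had been chosen from 12 once RNA integrity was known. Affymetrix Human 2.0 ST arrays gave each probe set, a group of probes for 1 transcript region, a log2 RMA signal per sample. The study used 1 cell line and 1 dose at 1 time, and the labels call the samples biological replicates without saying whether they came from separate cultures, so the spread between them may be technical.

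EGF family ligands are made as proteins anchored in the cell membrane, and metalloproteases release the soluble growth factor. TGFA (transforming growth factor alpha), AREG (amphiregulin), HBEGF (heparin-binding EGF-like growth factor) and EREG (epiregulin) bind the EGF receptor, whereas NRG1 (neuregulin 1) binds the related receptors ERBB3 and ERBB4; HBEGF and EREG also bind ERBB4. In skin, keratinocytes both make and sense the EGF receptor ligands, which drive their growth and their migration over a wound. Array signal from a whole culture cannot tell more cells that make a transcript from more transcript per cell.

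The 250 bases before the RefSeq gene start (GRCh38.p14, 5′ to 3′ on the gene's strand) are shown for the 4 EGF receptor ligands. Matches to the searched motifs are in capitals. The regions are chr5:140346604-140346853 (minus strand) for HBEGF, chr4:74364895-74365144 (plus) for EREG, chr4:74444886-74445135 (plus) for AREG and chr2:70553827-70554076 (minus) for TGFA.
HBEGF: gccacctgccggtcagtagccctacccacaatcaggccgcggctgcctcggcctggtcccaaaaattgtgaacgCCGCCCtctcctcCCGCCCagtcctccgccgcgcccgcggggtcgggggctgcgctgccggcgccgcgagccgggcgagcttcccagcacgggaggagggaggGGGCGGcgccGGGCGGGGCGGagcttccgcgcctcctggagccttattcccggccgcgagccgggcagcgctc
EREG: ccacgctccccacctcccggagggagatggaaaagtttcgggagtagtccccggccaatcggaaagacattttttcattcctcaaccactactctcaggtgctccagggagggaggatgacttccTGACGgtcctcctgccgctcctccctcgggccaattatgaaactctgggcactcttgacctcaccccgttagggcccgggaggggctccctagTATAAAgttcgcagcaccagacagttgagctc
AREG: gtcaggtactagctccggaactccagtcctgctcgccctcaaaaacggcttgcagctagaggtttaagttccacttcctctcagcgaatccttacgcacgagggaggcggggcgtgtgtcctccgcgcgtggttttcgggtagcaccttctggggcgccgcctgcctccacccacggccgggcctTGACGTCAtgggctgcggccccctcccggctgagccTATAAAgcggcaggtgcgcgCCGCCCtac
TGFA: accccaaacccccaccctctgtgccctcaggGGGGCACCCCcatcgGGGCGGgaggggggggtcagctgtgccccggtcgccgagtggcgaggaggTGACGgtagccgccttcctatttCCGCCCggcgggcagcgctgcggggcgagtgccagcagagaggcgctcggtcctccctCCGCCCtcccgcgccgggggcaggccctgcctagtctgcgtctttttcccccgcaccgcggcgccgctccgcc
Motifs were searched on both strands from 250 bases before to 50 after the start, in these windows and in all 35116 RefSeq windows of that length. The EREG and AREG sequences each hold a TATA box (TATAAA) on the gene's strand, first base at -32 in EREG and at -29 in AREG, a motif found in 11.5% of all windows. HBEGF and TGFA had no TATAAA and held several GC boxes (GGGCGG, at least 1 in 45.0% of windows). There were 5 matches in HBEGF and 4 in TGFA, 1 of them after the start, against 1 in AREG and 0 in EREG. The share of all windows with several matches was not counted. AREG had the full cAMP response element (TGACGTCA, in 1.85% of windows) at -65, and its core TGACG, which is part of the full element and was in 24.6% of windows, also occurred in EREG at -125 and in TGFA at -154. TGFA matched the kappaB consensus at 1 place, on both strands, first base at -219, a match seen in 11.3% of windows. None of the 4 windows held the AP-1 letters TGANTCA (7.71% of windows) or a CArG box (1.29%). A second TGFA window in the table, for another start, had no match to any motif searched. GC content over the 250 bases was 76.4% in HBEGF, 75.6% in TGFA, 65.2% in AREG and 58% in EREG, beside a median of 58% over all windows. These matches describe letters, not binding.

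**Figure D1:**
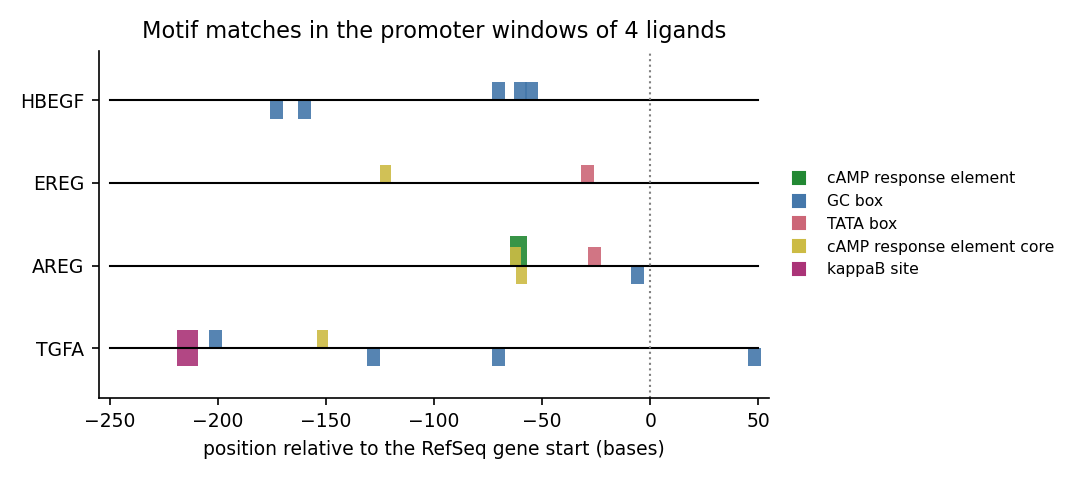
Motif matches in the promoter windows of HBEGF, EREG, AREG and TGFA, by distance in bases from the RefSeq gene start (dotted line); boxes above a line are matches on the gene's strand, boxes below on the other, and the full cAMP response element is drawn taller. TATA boxes appear in EREG and AREG near the start, and GC boxes are most numerous in HBEGF and TGFA.

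The authors' table places HBEGF on the minus strand of chromosome 5 (139712428 to 139726216), TGFA on the minus strand of chromosome 2 (70674412 to 70781325) and NRG1 on the plus strand of chromosome 8 (31496902 to 32622558). EREG lies on the plus strand of chromosome 4 (75230860 to 75254477). Both AREG probe sets lie downstream of it on the same strand, 16967853 at 75310851 to 75320726 and 16967863 at 75480629 to 75490486, which leaves gaps of 56.4 kb and 226.2 kb after EREG. Each of these spans covers a whole gene, with exons and introns, and no source used here names their genome build. In the RefSeq gene table of GRCh38.p14, AREG has 1 entry, with AREGB among its synonyms, and the protein-coding genes EPGN, EREG, AREG and BTC, all ligands of this family, follow one another. The 2 AREG probe sets carry the same transcript annotation but lie 159.9 kb apart, and whether they read separate copies of the gene could not be settled from the files. They may share signal and are not treated as independent measures.

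HBEGF, which binds heparan sulphate as well as the EGF receptor, differed most between the groups. Its log2 signal was 9.19, 9.15 and 9.24 in control samples 1, 2 and 3, and 12.50, 12.50 and 12.33 in M1 samples 1, 2 and 3. The groups lay far apart: the lowest M1 sample stood 3.09 above the highest control, and among the M1 samples the third was the low one. The mean went from 9.19 ± 0.05 to 12.44 ± 0.10 (SD, n = 3 each), a difference of 3.25 ± 0.07 (SE) on the log2 scale, or 9.53-fold.

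EREG, a ligand of both the EGF receptor and ERBB4, came next. Its log2 signal was 10.04, 10.23 and 10.24 in control samples 1 to 3 and 12.41, 12.37 and 12.23 in M1 samples 1 to 3. The groups did not overlap, with a gap of 1.99 on the log2 scale between the nearest samples, and the low values came from control 1 and M1 3. The mean went from 10.17 ± 0.11 to 12.34 ± 0.09 (SD, n = 3 each), a log2 difference of 2.16 ± 0.08 (SE), or 4.48-fold.

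AREG, an EGF receptor ligand of low affinity that keratinocytes use as an autocrine growth factor, had 2 probe sets under its name. Probe set 16967853 gave log2 signals of 11.56, 11.58 and 11.52 in control samples 1 to 3 and 13.11, 12.93 and 12.99 in M1 samples 1 to 3. Probe set 16967863 gave 11.64, 11.74 and 11.64 in control samples 1 to 3 and 13.05, 12.90 and 13.13 in M1 samples 1 to 3. In both, M1 sample 2 was the lowest of the treated samples, still 1.35 and 1.15 above the highest control. The log2 difference was 1.46 ± 0.07 (SE) by the first and 1.35 ± 0.08 (SE) by the second, or 2.74-fold and 2.55-fold. These differences were 0.11 ± 0.07 apart (SE between samples, n = 3 per group). With M1 protein the AREG signals came within 0.58 (log2) of the brightest probe set of an array, where array signals can be compressed; what that did to the AREG difference was not tested.

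TGFA, the prototype EGF receptor ligand of keratinocytes beside EGF itself, had log2 signals of 9.37, 9.43 and 9.46 in control samples 1 to 3 and 10.77, 10.92 and 10.74 in M1 samples 1 to 3. M1 sample 2 was the highest here, whereas it was the lowest for AREG, and the groups were separated by 1.28. The mean went from 9.42 ± 0.05 to 10.81 ± 0.10 (SD, n = 3 each), a log2 difference of 1.39 ± 0.07 (SE), or 2.63-fold.

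NRG1, the only member that does not bind the EGF receptor itself, differed least. Its log2 signal was 9.39, 9.63 and 9.60 in control samples 1 to 3 and 10.63, 10.44 and 10.45 in M1 samples 1 to 3. Control 1 was the low control and M1 1 the high treated sample, and the nearest samples of the groups were 0.82 apart. The mean went from 9.54 ± 0.13 to 10.51 ± 0.11 (SD, n = 3 each), a log2 difference of 0.97 ± 0.09 (SE), or 1.95-fold.

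**Figure D2:**
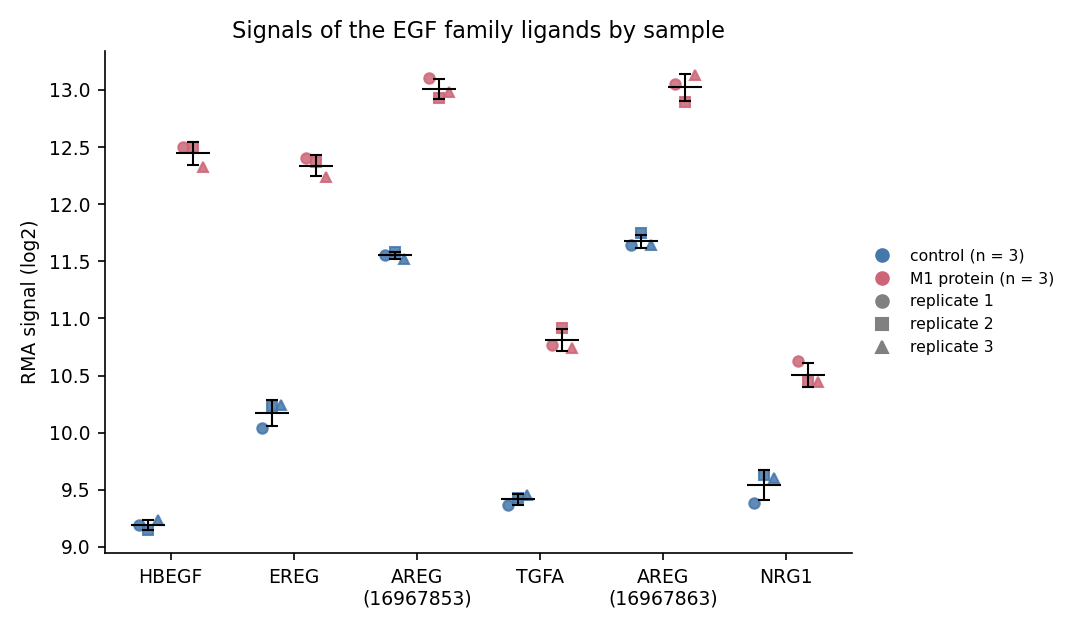
Log2 RMA signal of each ligand probe set (horizontal) in the control and M1 samples, with symbols for the replicate number and black lines for the mean ± SD (n = 3). Every M1 sample lies above every control sample in all 6 probe sets; levels of different probe sets are not comparable with each other.

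All 6 probe sets were higher with M1 protein and had groups that did not overlap. Over all probe sets, 46.5% had groups that did not overlap in one or the other direction, and in 18.6% every M1 sample lay above every control. By limma's adjusted p under 0.05, 32.8% of all probe sets were called, 11.6% as higher. Listing in the authors' table covered 2.25% of the probe sets, 1.37% as higher. Since the members come from that table, their own count of 6 of 6 was fixed by the choice and nothing is read from it. Their median log2 difference was 1.42, beside 0.0032 over all probe sets and 1.27 over the 303 higher ones of the table.

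The ligands fell into steps by the size of their measured log2 difference. Whether compression of bright signals shaped these steps was not tested, and SEs between samples do not measure it. Taking each M1 sample against the control mean, HBEGF ranged from 3.14 to 3.31, EREG from 2.06 to 2.24 and NRG1 from 0.90 to 1.09, and none of these ranges met that of another ligand. TGFA (1.32 to 1.502) and AREG (1.38 to 1.56 by probe set 16967853, 1.22 to 1.45 by 16967863) overlapped. Of the 15 pairs of probe sets, 3 overlapped, all among TGFA and the 2 of AREG. These ranges leave out the spread of the control samples, which the SEs between samples below include. HBEGF exceeded EREG by 1.09 ± 0.07 (SE between samples), an error that covers the spread between these samples alone. EREG exceeded AREG (16967853) by 0.71 ± 0.09 and TGFA exceeded NRG1 by 0.43 ± 0.11. AREG (16967863) exceeded NRG1 by 0.38 ± 0.10. AREG (16967853) and TGFA were 0.06 ± 0.10 apart, within the error, and after quantile normalization TGFA (1.41) stood above AREG (1.37).

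**Figure D3:**
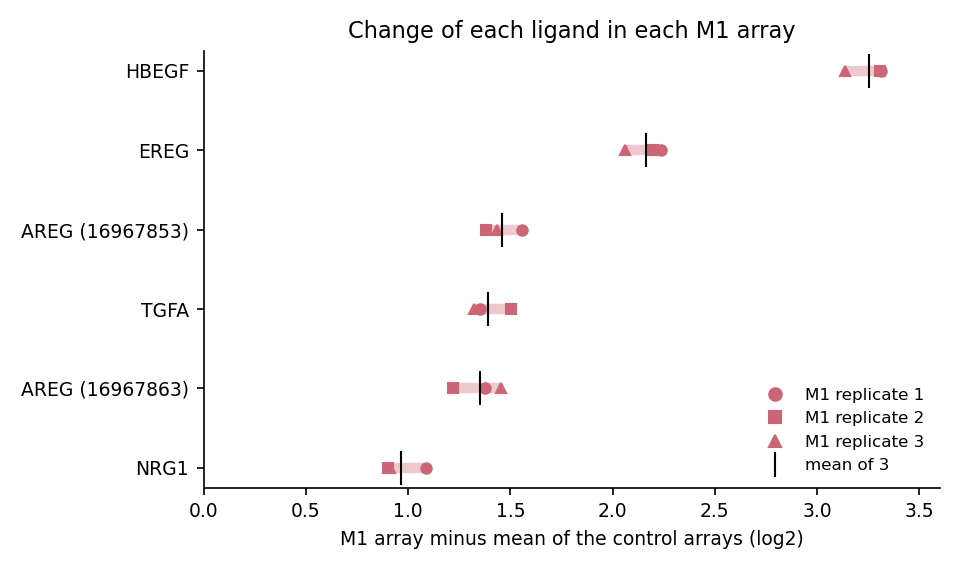
Log2 signal of each M1 sample minus the mean of the 3 control samples, for each ligand probe set; symbols give the M1 replicate, pale bars the range and black marks the mean. HBEGF and EREG stand apart, TGFA and both AREG probe sets overlap between 1.22 and 1.56, and NRG1 is lowest.

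Among all 22119 probe sets, HBEGF ranked 9 by the size of the log2 difference upward, EREG 56, AREG 142 and 177, TGFA 163 and NRG1 353. Put as shares, 0.0362% of probe sets had a larger log2 difference than HBEGF and 1.59% a larger one than NRG1. In the authors' deposited table, the SAM score divides the group difference by its spread plus a constant. Among the ligand probe sets that divisor ran only from 0.722 for AREG (16967853) to 0.765 for NRG1. Their scores therefore follow mostly the size of the difference and are not a separate ranking. The score was 4.45 for HBEGF, 2.88 for EREG, 2.02 and 1.81 for AREG, 1.91 for TGFA and 1.26 for NRG1. The lowest score of a higher probe set in the authors' deposited table was 1.03. By score alone, NRG1 was thus the ligand nearest to the edge of the selection. Genes just outside it cannot be given, since names come with listed probe sets alone. By the same score HBEGF ranked 5 and NRG1 235 of the 303 higher probe sets in the authors' deposited table.

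**Figure D4:**
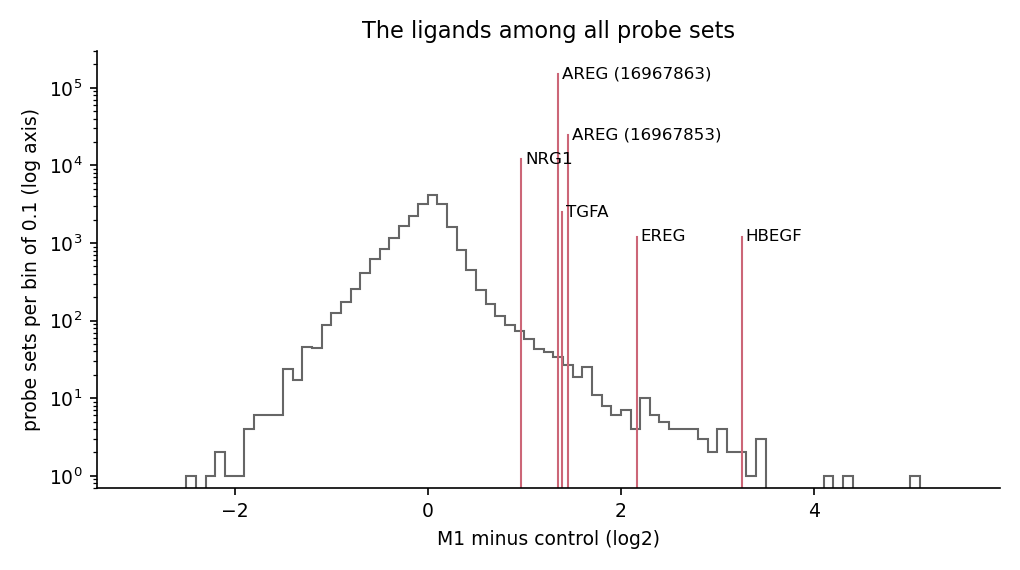
Number of probe sets (log axis) by log2 difference, M1 minus control, in bins of 0.1, with red lines at the 6 ligand probe sets; line heights carry no value. HBEGF at 3.25 lies in the sparse right tail and NRG1 at 0.97 on its shoulder.

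The spread of the ligands between replicates is given as a description. The authors' selection used that spread, so a comparison with other probe sets was partly fixed by the choice. The SD within groups, pooled over control and M1, was 0.067 to 0.119 on the log2 scale over the 6 probe sets. Its median over all probe sets was 0.102. Deviations from the group mean reached 0.15, in NRG1 of control 1. Control 1 lay below the control mean in 5 of 6 ligand probe sets, and M1 1 lay above the M1 mean in 5 of 6. M1 3 was below it in 5 of 6, and M1 2 was split at 3 and 3, above for HBEGF, EREG and TGFA and below for NRG1 and both AREG probe sets. These deviations were small beside the differences between the groups.

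Upstream and downstream genes of the pathway were looked up in the authors' table, where a gene that is missing may still have changed. The lists were chosen with earlier results of these data known; of all probe sets, 2.25% were in the table, and 303 of its 497 were higher, so the counts below describe the lists and support nothing about them. The table held 0 of 6 other ligands of the family (EGF, BTC, EPGN and NRG2 to NRG4), 0 of 4 receptors (EGFR and ERBB2 to ERBB4), 0 of 11 genes of ligand shedding and transport, among them the sheddase gene ADAM17, and 0 of 15 genes of the RAS and MAP kinase cascade. Of 15 feedback inhibitors, which damp the receptor or the kinases below it, the table held 4, each higher with M1 protein. They were the MAP kinase phosphatases DUSP5 (log2 difference 2.80 ± 0.09 SE), DUSP4 (2.68 ± 0.07 SE) and DUSP6 (1.57 ± 0.06 SE) and the receptor signalling inhibitor SPRY2 (2.21 ± 0.08 SE). Of 25 genes that EGF receptor signalling is known to raise, the table held 16, each higher, with log2 differences from 1.03 to 5.05 and a median of 1.58. The 4 with the largest were the chemokine gene CXCL8 (5.05 ± 0.14 SE), the hyaluronan synthase gene HAS2 (4.16 ± 0.12 SE) and the AP-1 subunit genes FOSB (2.87 ± 0.06 SE) and FOS (2.53 ± 0.11 SE). The authors selected the listed genes on these same samples, so their direction is no independent evidence, and many of them answer to other stimuli too. Of 8 keratinocyte markers, 1 was in the table (KRT17), and of the markers of fibroblasts, leukocytes, endothelium and melanocytes 0 were, so the labelled cell type could not be checked against its markers.

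**Figure D5:**
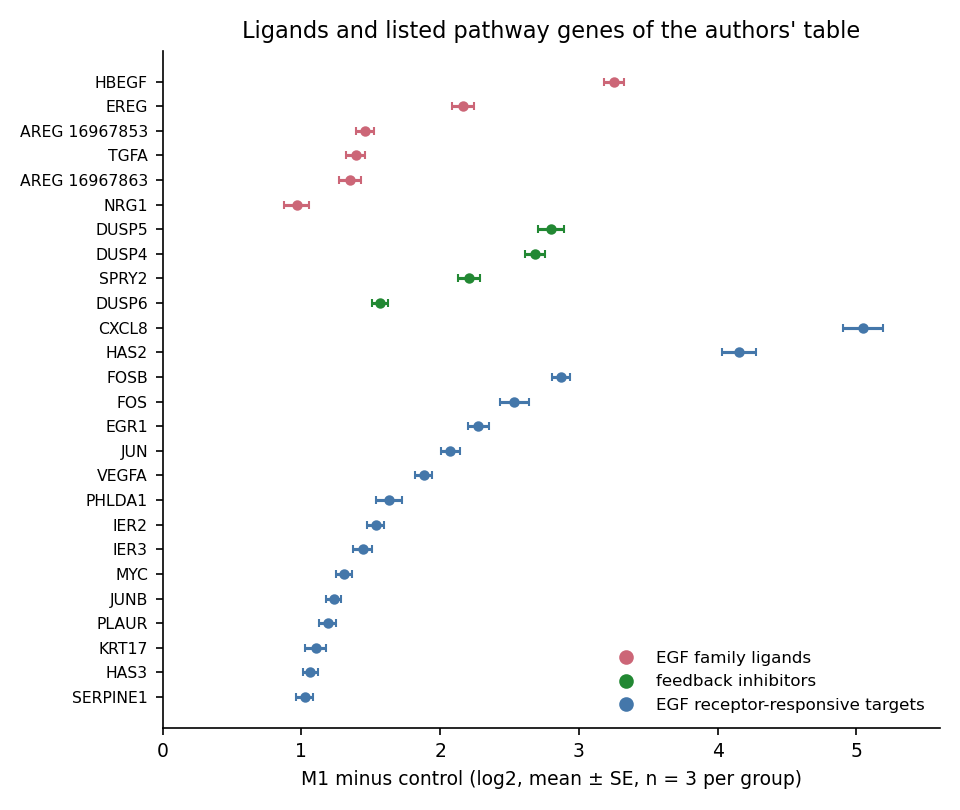
Log2 difference, M1 minus control (mean ± SE, n = 3 per group), of the ligands (red), of the listed feedback inhibitors (green) and of the listed EGF receptor-responsive targets (blue) that the authors' table holds. The 4 inhibitors lie between 1.57 and 2.80 and the 16 targets between 1.03 and 5.05, all above 0.

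For each ligand, the 2 genes with the most similar profile were taken from the 490 other probe sets of the table with 1 symbol, by Euclidean distance over the 6 samples after subtracting the control mean. HBEGF was nearest to CCN2, a matricellular gene (distance 0.278), and to TNFAIP3, an inhibitor of NF-kappaB signalling (0.302). EREG was nearest to the tyrosine kinase gene ABL2 (0.189) and to the AP-1 gene JUN (0.193). AREG (16967863) was nearest to the sphingomyelin synthase gene SGMS2 (0.160) and to NABP1 (0.162), and TGFA to the phosphate transporter gene SLC20A1 (0.132) and to SOWAHC (0.148). NRG1 was nearest to the zinc finger gene HIVEP2 (0.131) and to TET3, a DNA demethylation enzyme gene (0.132). No ligand had another ligand as its closest profile: 40 probe sets outside the family were nearer to AREG than TGFA was, and 171 were nearer to NRG1 than AREG was. Closeness here follows mostly the size of the difference between the groups.

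The annotation in the authors' deposited table covered 4 of the 5 ligands, with AREG left blank. All 4 carried the terms growth factor activity, extracellular space, extracellular region and plasma membrane. Genes higher with M1 protein numbered 17 of 17, 31 of 31, 39 of 43 and 50 of 64 for these terms, in that order. These counts are of genes in the table and include the 4 ligands, whose direction was fixed by the choice. Of all probe sets in the table, 303 of 497 were higher. HBEGF, EREG and TGFA shared the term epidermal growth factor receptor binding, which no other gene of the table carried. These terms were looked at after the values were known.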

How the data were processed

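RNA of 3 control and 3 M1 samples was measured on 1 array each. The deposited log2 signals came from RMA in Affymetrix Expression Console 1.1.2, per the tools that the submitters' processing notes list; RMA corrects background, normalizes between arrays and summarises probes, and signals near either end of an array's range can be compressed. The authors' deposited table adds, per the file headers, a SAM score, a fold change (ratio of unlogged means) and a t-test p-value. For the ligand probe sets, its log2 signals gave the same log2 differences as those of the value table. The number of arrays limits the precision.

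Each of the 22119 probe sets was fitted with limma 3.58.1 in R 4.3.3 (M1 against control, no filter, Benjamini-Hochberg over all, two-sided, called at an adjusted p of 0.05), and SEs of single genes come from this fit; it was tested on simulated data. SEs between probe sets come from per-sample differences. All 6 ligand probe sets passed the filter at the 25th percentile of mean signal. The members, lists and motifs were chosen with earlier results of these data known. Named genes were all members, up to 4 genes per list and the 2 nearest profiles per ligand, AREG by its brighter probe set. Symbols were updated through RefSeq accessions (476 of 497 matched, 46 newer). Promoters are RefSeq's; NRG1's is not shown. Alternatives were the replicate block, quantile normalization, median centring, the filter, variance priors, array weights, the methods' t-test, a 1.5-fold limit, unlogged means, the signals of the authors' table, the mean of both AREG probe sets and each sample left out.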

Additional observations from a re-analysis of the deposited data

How the results depend on the processing

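The ligands kept their direction under every alternative run on them, which their groups, lying apart, made certain for the samples left out. Quantile normalization moved AREG by more than its replicate SD, from 1.46 to 1.37 (probe set 16967853) and from 1.35 to 1.24 (16967863) on the log2 scale; the cause was not tested. With each sample left out, the log2 difference was 3.22 to 3.31 for HBEGF, 2.10 to 2.22 for EREG, 1.41 to 1.49 and 1.30 to 1.41 for the AREG probe sets, 1.34 to 1.43 for TGFA and 0.89 to 1.01 for NRG1. The number of probe sets called was 7245 (2555 higher, 4690 lower), 5386 to 6763 without each sample in turn, 2088 with a 1.5-fold limit, which by construction is fewer, and 3864 by the methods' t-test with Benjamini-Hochberg. Median centring gave 7248, with 3578 higher and 3670 lower. A replicate block left 5821 calls, and the ligands' differences stayed as they were by construction. The numbers gave no sign of pairing: deviations of same-numbered samples had correlations of -0.123, -0.118 and -0.0011, and none was the best match of its control sample. With so few arrays, differences within the replicate spread, such as that of TGFA and AREG, cannot be ordered.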
